A study of Mus musculus with 4 samples.

Results

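The Hox cluster genes are 39 genes of mouse for homeodomain transcription factors, taken here as every gene in the deposited tables whose symbol is Hox, a cluster letter from a to d and a number. The rule picks them by name, out of 24411 genes in the tables, and was set with earlier results of these data known. The study compared hematopoietic stem cells of Dis3-/- and wild-type mice on a C57BL/6 background by RamDA-seq, which reads total RNA along whole transcripts. Dis3 encodes a catalytic subunit of the RNA exosome, the complex that trims and degrades RNA. There were 2 libraries of 100 cells per genotype, and the design text gives 2 mice. Dis3-/- cells came from Dis3fl/fl;Mx-Cre donors, in which the interferon-inducible Mx promoter drives Cre, and wild-type cells from Dis3fl/fl donors without Cre. In both groups 5000000 marrow cells were grafted into irradiated CD45.1 hosts, and 4 weeks later 300 µg of pIpC, an interferon inducer, was given on days 0 and 2. The protocol text is shared by both genotypes, and no label gives the injections by mouse. The day 4 sort took Lineage- CD48- cells that carried both EPCR and CD150. The gate as labelled names no donor marker, so cells of the host were not separated by it. No source used here gives the animals' ages.

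Hox genes lie in 4 clusters on different chromosomes, and genes with the same number in different clusters are paralogs that derive from a common ancestor. In the embryo, low-numbered genes act towards the head and high-numbered genes towards the tail. In blood, genes of the Hoxa and Hoxb clusters are known for high levels in stem and early progenitor cells, and for persistent activity in leukaemias with Kmt2a rearrangements. Hox proteins bind DNA together with partner homeodomain proteins of the Pbx and Meis families.

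The Hoxa cluster has 11 members on chromosome 6 (52155367 to 52260880, mm10), and the Hoxb cluster has 10 on chromosome 11 (96194316 to 96368254). The Hoxc cluster has 9 on chromosome 15 (102921131 to 103036856), and the Hoxd cluster has 9 on chromosome 2 (74668225 to 74765142). All positions are those of RefSeq on GRCm38.p6, the same assembly as mm10.

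Totals of expected counts, the estimated reads per gene, ranged from 6085367 to 6442740 in Dis3-/- libraries and from 6251761 to 6818535 in wild-type libraries. The targeted gene Dis3 had 140 and 193 counts in Dis3-/- libraries, against 388 and 335 in wild-type libraries (log2 fold change -1.02 ± 0.14 SE, edgeR adjusted p = 2.58e-04). No source used here gives the floxed part of Dis3, and the counts cover the whole gene. All 9 genes on the stem cell list used to check the label had reads enough to be tested, including Procr and Slamf1, the genes of EPCR and CD150. In bulk samples, fewer cells of a type and less RNA per cell cannot be told apart. The edgeR p-values rest on the spread between 2 libraries of a genotype and largely on a spread shared over all genes. The shared part gave 11.7 of the 13.75 degrees of freedom of the Hox tests. Nothing in the labels beyond the design text says how replicates were separated.

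Stem cells of both genotypes held RNA of the Hoxa and Hoxb clusters, and next to none of the Hoxc and Hoxd clusters. Of the 39 genes 15 were expressed, meaning a mean of at least 1 TPM over the 4 libraries, 8 of them in the Hoxa and 7 in the Hoxb cluster. TPM, as deposited by the authors, is a gene's share of all transcripts corrected for gene length, so that levels of different genes can be compared. Summed over the clusters, Hoxa genes reached 119.4 and 121.8 TPM in Dis3-/- libraries, against 151.0 and 138.1 TPM in wild-type libraries. Hoxb genes summed to 23.7 and 27.7 TPM in Dis3-/- libraries, against 41.9 and 39.0 TPM in wild-type libraries. Over all Hox genes the sums were 143.3 and 149.7 TPM in Dis3-/- libraries, against 192.9 and 177.7 TPM in wild-type libraries. Both Dis3-/- sums thus lay below both wild-type sums, for each of these clusters and for all Hox genes, which is a description with no test. On the log2(TPM + 1) scale the median change of all tested genes lay at -0.107.

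**Figure D1:**
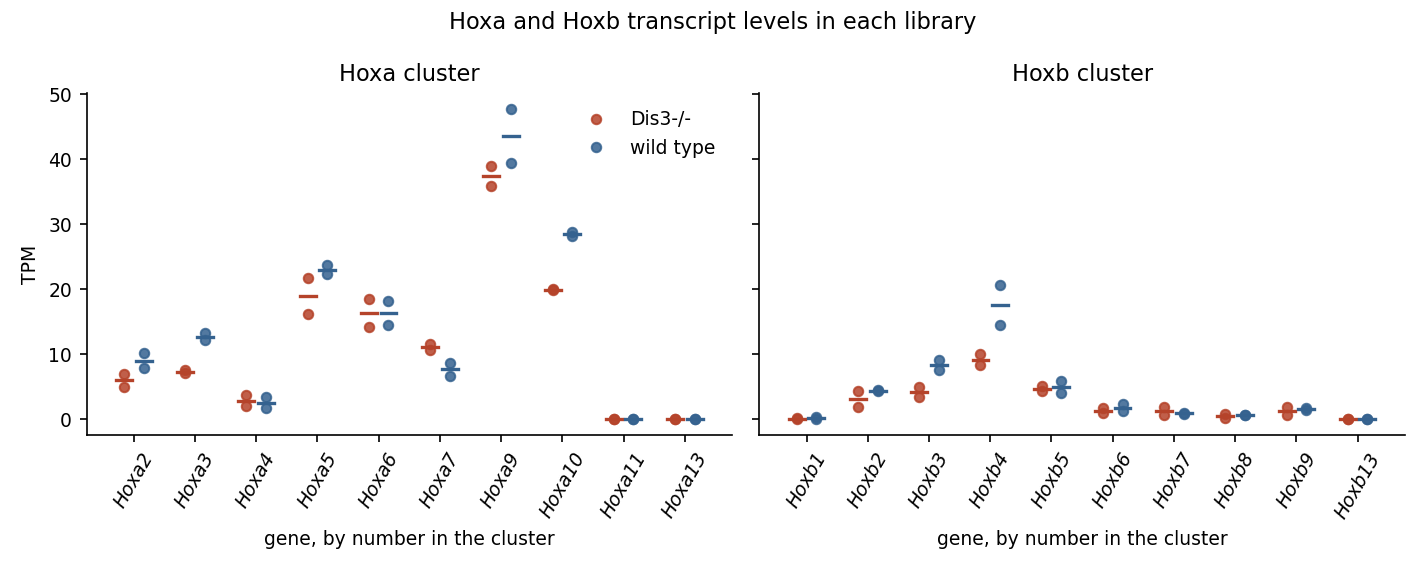
TPM of Hoxa genes (left) and Hoxb genes (right) in each library, Dis3-/- in red and wild type in blue, with a bar at the mean of 2 libraries. Hoxa9 is the highest of the genes drawn, and Hoxa11, Hoxa13 and Hoxb13 are at 0 in all 4 libraries.

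Of the 18 Hoxc and Hoxd genes, which are known for patterning of the trunk and limbs, 15 had 0 counts in every library. The others were Hoxc4, with 0 counts in both Dis3-/- libraries and 0 and 3 in wild-type libraries, Hoxc6, with 1 count in a Dis3-/- library, and Hoxd13, with 1 count in a Dis3-/- library. A count of 0 leaves room for up to 3 counts, which is 0.469 to 0.505 CPM (counts scaled to library size) in Dis3-/- and 0.432 to 0.476 CPM in wild-type libraries. These floors cover counting error only. Hoxa11, Hoxa13 and Hoxb13, at the high-numbered ends of their clusters, had 0 counts in every library too, so that 18 of the 39 genes had no reads at all.

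Within the Hoxa cluster, levels were highest at Hoxa9, Hoxa10, Hoxa5 and Hoxa6. Hoxa9, a driver of stem and progenitor cell expansion and of myeloid leukaemia, stood at 35.9 and 38.9 TPM in Dis3-/- libraries, against 47.7 and 39.4 TPM in wild-type libraries. Its lower wild-type library exceeded its higher Dis3-/- library by less than 1 TPM, and per read the groups overlapped. Hoxa9 made up 25.1% and 26.0% of all Hox TPM in Dis3-/- libraries, against 24.7% and 22.2% in wild-type libraries. Hoxa10, a close neighbour also active in early myeloid cells, had 20.0 and 19.9 TPM in Dis3-/- libraries, against 28.1 and 28.8 TPM in wild-type libraries. Its libraries of a genotype lay close together, and the genotypes did not overlap.

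Hoxa5, which influences the choice between myeloid and erythroid fates, had 21.8 and 16.3 TPM in Dis3-/- libraries, against 23.7 and 22.3 TPM in wild-type libraries. Hoxa6 had 14.2 and 18.6 TPM in Dis3-/- libraries, against 18.2 and 14.5 TPM in wild-type libraries, with full overlap. In wild-type libraries Hoxa9 lay above Hoxa10, and Hoxa10 above Hoxa5, without overlap between neighbours in that order. In Dis3-/- libraries Hoxa9 kept its lead, while the values of Hoxa5 overlapped those of both Hoxa10 and Hoxa6.

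Hoxa7, which is activated along with Hoxa9 in Kmt2a-rearranged leukaemia, had 10.7 and 11.6 TPM in Dis3-/- libraries, against 8.65 and 6.72 TPM in wild-type libraries. Both Dis3-/- values were the higher ones, which no other tested Hox gene showed. Towards the low-numbered end, Hoxa3 had 7.09 and 7.62 TPM in Dis3-/- libraries, against 13.3 and 12.2 TPM in wild-type libraries. Hoxa2, best known from hindbrain patterning, had 7.05 and 5.05 TPM in Dis3-/- libraries, against 7.91 and 10.2 TPM in wild-type libraries. For both genes the Dis3-/- libraries lay below the wild-type libraries, closely so for Hoxa2. Hoxa4 was low, at 2.08 and 3.72 TPM in Dis3-/- libraries, against 1.72 and 3.46 TPM in wild-type libraries, and overlapped.

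Within the Hoxb cluster Hoxb4 led. Hoxb4, whose forced expression expands mouse stem cells, had 8.32 and 10.1 TPM in Dis3-/- libraries, against 20.6 and 14.5 TPM in wild-type libraries. Hoxb3, which together with Hoxb4 is known to sustain stem cell proliferation in mice, had 3.44 and 4.99 TPM in Dis3-/- libraries, against 7.55 and 9.08 TPM in wild-type libraries. Neither gene overlapped between genotypes. Hoxb5, known as a marker of long-term stem cells in mice, had 4.31 and 5.10 TPM in Dis3-/- libraries, against 4.07 and 5.88 TPM in wild-type libraries, so that the Dis3-/- values lay inside the wild-type range.

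Hoxb2, a paralog of Hoxa2, had 1.94 and 4.39 TPM in Dis3-/- libraries, against 4.34 and 4.46 TPM in wild-type libraries. A single Dis3-/- library was low, and the other matched the wild type. Hoxb9 had 1.83 and 0.67 TPM in Dis3-/- libraries, against 1.46 and 1.73 TPM in wild-type libraries. It was the lowest tested gene and just inside the limit for testing. Hoxb6, Hoxb7, Hoxb8 and Hoxb1 were not tested, with at most 6 counts in a Dis3-/- library and at most 8 in a wild-type library. Hoxb8, whose enforced expression is used to immortalise myeloid progenitors, had 6 and 1 counts in Dis3-/- libraries, against 5 in each wild-type library.

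**Figure D2:**
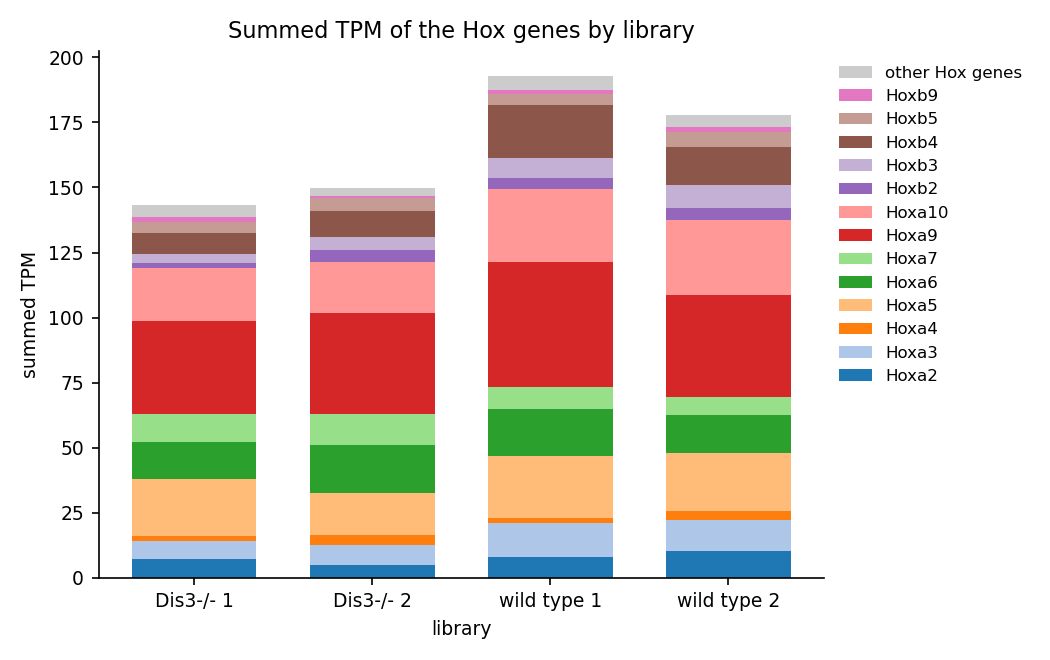
Summed TPM of the Hox genes in each library, Dis3-/- left and wild type right, divided by gene; the grey part holds the Hox genes that were not tested. The Dis3-/- bars reach 143.3 and 149.7 TPM and the wild-type bars 192.9 and 177.7 TPM, and Hoxa9 is the widest band in all 4.

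Hoxb4 and Hoxb3 were lower in Dis3-/- stem cells. The fit on counts with edgeR covered 12244 genes, of which 13 were Hox genes, 8 from the Hoxa and 5 from the Hoxb cluster. The other 26 Hox genes had too few reads. Of the 13, 2 (15.4%) were called at an adjusted p of 0.05, against 23.0% of all genes. Both were called lower, against 10.2% of all genes called lower and 12.7% called higher. In counts, Hoxb4 had 56 and 71 in Dis3-/- libraries, against 147 and 95 in wild-type libraries. Its level was 10.3 ± 1.19 CPM in Dis3-/- and 18.1 ± 4.31 CPM in wild-type libraries (SD, n = 2 each). The log2 fold change of Hoxb4 was -0.82 ± 0.23 (SE, edgeR adjusted p = 0.0203), a fold of 0.566 with a 95% interval of 0.401 to 0.799. Hoxb3 had 31 and 46 counts in Dis3-/- libraries, against 72 and 80 in wild-type libraries. Its level was 6.21 ± 1.40 CPM in Dis3-/- and 11.5 ± 1.65 CPM in wild-type libraries. The log2 fold change of Hoxb3 was -0.89 ± 0.28 (SE, edgeR adjusted p = 0.0379), a fold of 0.541 with a 95% interval of 0.354 to 0.827. These intervals are per gene and not adjusted over genes.

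Both calls rested on few reads and on single libraries. The Hoxb4 call ended without Dis3-/- replicate 1 (-0.71, edgeR adjusted p = 0.0542) or wild-type replicate 1 (-0.55, edgeR adjusted p = 0.207), and with DESeq2 (adjusted p = 0.0857). The Hoxb3 call ended without Dis3-/- replicate 1 (-0.67, edgeR adjusted p = 0.181), wild-type replicate 1 (-1.03, edgeR adjusted p = 0.0505) or wild-type replicate 2 (-0.74, edgeR adjusted p = 0.196), with DESeq2 (adjusted p = 0.149) and on log2(TPM + 1) values (limma adjusted p = 0.0535). In all 13 alternative settings the log2 fold change stayed below 0 for both, between -1.04 and -0.552 for Hoxb4 and between -1.14 and -0.674 for Hoxb3.

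The share of tested Hox genes that was called lay near that of all genes. An unadjusted edgeR p under 0.05 was found for 5 of the 13, against 35.6% of all genes. Tested Hox genes averaged 1.62 to 53.4 CPM, and their median SE was 0.296, against 0.155 for all genes. Of the 7776 genes in the same range of CPM, 17.1% were called and 7.23% were called lower. Their median SE was 0.206, so that they were better measured than the tested Hox genes. The genotypes did not overlap in CPM for 6 of 13 Hox genes (46.2%), 5 lower and 1 higher in Dis3-/-, against 62.4% of all genes (30.5% lower and 31.9% higher). A log2 fold change below 0 was found for 9 of the 13 (69.2%), with a median of -0.24, against 50.3% of all genes and a median of -0.0027. Hox genes of a cluster share a locus and are not independent of each other. The limit for testing was met in all 4 libraries by 10 of the 13, Hoxb3 and Hoxb4 among them, and in some only by Hoxa4, Hoxb2 and Hoxb9.

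**Figure D3:**
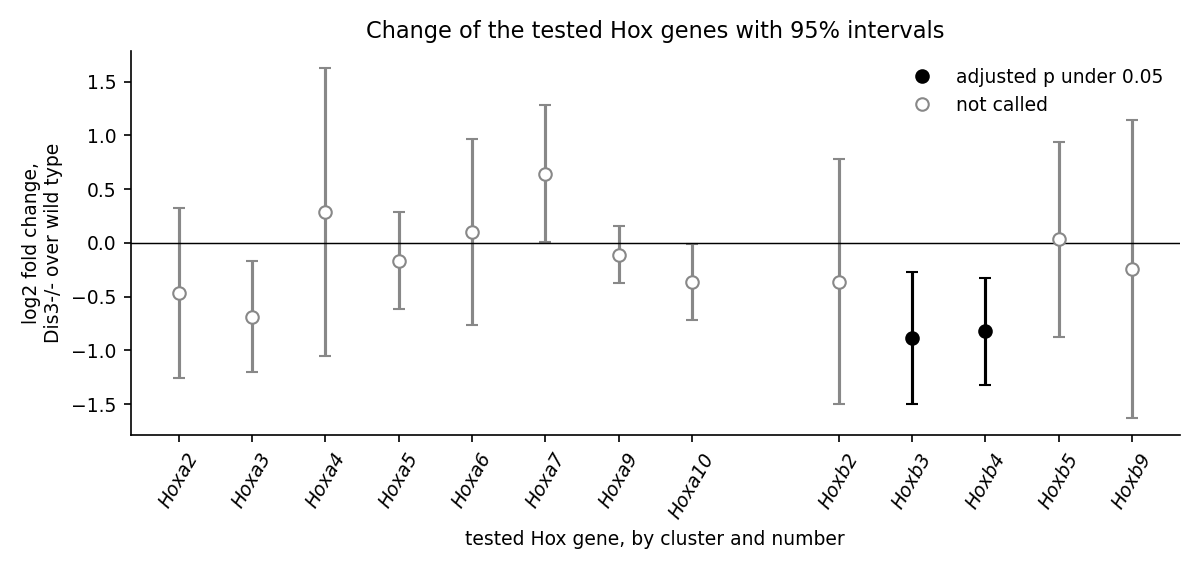
Log2 fold change, Dis3-/- over wild type, of the 13 tested Hox genes with 95% intervals from edgeR; filled points passed the adjusted p of 0.05. Hoxb3 (-0.89) and Hoxb4 (-0.82) are the filled points, and Hoxa9 has the narrowest interval.

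Another 3 Hox genes had 95% intervals that did not include 0 but did not pass after adjustment over all genes. Hoxa3 had 47.3 and 53.2 counts in Dis3-/- libraries, against 93.8 and 79.3 in wild-type libraries (log2 fold change -0.69 ± 0.24, edgeR adjusted p = 0.0550). Hoxa3 passed without a filter on low counts (edgeR adjusted p = 0.0434), with robust empirical Bayes (0.0494) and on log2(TPM + 1) and log2(TPM + 0.1) values (limma adjusted p = 0.0397 and 0.0417), and the range over all alternatives was 0.0397 to 0.233. Hoxa10 had 119 and 125 counts in Dis3-/- libraries, against 173 and 164 in wild-type libraries (-0.36 ± 0.17, edgeR adjusted p = 0.130). Hoxa10 passed on log2(TPM + 1) and log2(TPM + 0.1) values (limma adjusted p = 0.0393 and 0.0382; range over all alternatives 0.0382 to 0.398). On the log2(TPM + 1) scale the median of all tested genes lay at -0.107, and relative to it Hoxa10 stood at -0.385 and Hoxa3 at -0.609. Hoxa7 had 54 and 61 counts in Dis3-/- libraries, against 46 and 33 in wild-type libraries (0.65 ± 0.30, edgeR adjusted p = 0.134), and passed in none of the alternatives (0.128 to 0.418).

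The other 8 tested Hox genes had intervals on both sides of 0. For Hoxa9, the best measured, with 299 and 335 counts in Dis3-/- libraries against 419 and 318 in wild-type libraries, the log2 fold change was -0.11 ± 0.12 (edgeR adjusted p = 0.559). The interval of Hoxa9, a fold of 0.770 to 1.11, leaves out a fall as deep as that estimated for Hoxb4. The difference between the changes of Hoxa9 and Hoxb4 was not tested. Hoxa5 had a log2 fold change of -0.17 ± 0.21 (edgeR adjusted p = 0.615) and a fold interval of 0.652 to 1.22. Hoxb5 stood at 0.03 ± 0.42 (edgeR adjusted p = 0.967), with a fold interval of 0.544 to 1.92. Hoxa2 (-0.47 ± 0.37), Hoxa4 (0.28 ± 0.62), Hoxa6 (0.10 ± 0.40), Hoxb2 (-0.36 ± 0.53) and Hoxb9 (-0.24 ± 0.64) had edgeR adjusted p-values of 0.399 to 0.887. Their intervals on the log2 scale were -1.26 to 0.33 for Hoxa2, -1.06 to 1.63 for Hoxa4, -0.77 to 0.97 for Hoxa6, -1.50 to 0.78 for Hoxb2 and -1.63 to 1.14 for Hoxb9.

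Paralogs with the same number were summed, and sets with a summed mean of at least 1 TPM are given. Groups 2, 3, 4, 5, 9 and 10 had both Dis3-/- sums below both wild-type sums. Group 7 had both above, and group 6 overlapped. For single genes in CPM, 62.4% of all tested genes did not overlap, 30.5% lower and 31.9% higher in Dis3-/-. No such share was computed for TPM or for sums of genes. On the log2(TPM + 1) scale the median change of all tested genes was -0.107. In CPM the values of Hoxa5 and Hoxa9, the main genes of groups 5 and 9, overlapped between genotypes. The summed TPM of group 4, Hoxa4 and Hoxb4 with Hoxc4 and Hoxd4, was 10.4 and 13.8 in Dis3-/- libraries, against 22.4 and 18.5 in wild-type libraries. That of group 3 was 10.5 and 12.6 TPM in Dis3-/- libraries, against 20.8 and 21.3 TPM in wild-type libraries. Group 2, from Hoxa2 and Hoxb2, had 8.99 and 9.44 TPM in Dis3-/- libraries, against 12.3 and 14.6 TPM in wild-type libraries. Group 10 had reads from Hoxa10 alone, whose values are given above. Group 5 had 26.1 and 21.4 TPM in Dis3-/- libraries, against 27.8 and 28.2 TPM in wild-type libraries. Group 9 had 37.7 and 39.6 TPM in Dis3-/- libraries, against 49.2 and 41.1 TPM in wild-type libraries, nearly all of it from Hoxa9. Group 6 had 15.4 and 20.3 TPM in Dis3-/- libraries, against 20.5 and 15.8 TPM in wild-type libraries, with overlap between genotypes. Group 7 had 12.7 and 12.2 TPM in Dis3-/- libraries, against 9.55 and 7.70 TPM in wild-type libraries. As shares of all Hox TPM, Hoxb4 made up 5.80% and 6.73% in Dis3-/- libraries, against 10.7% and 8.13% in wild-type libraries. Hoxa7 made up 7.49% and 7.74% in Dis3-/- libraries, against 4.48% and 3.78% in wild-type libraries. These sums and shares are descriptions without a test.

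The gene body of Hoxb4 (chromosome 11, 96318267 to 96321638) lies inside that of Hoxb3 (96307101 to 96347930). Their annotated exons share 0 bases in GENCODE M21, but no source used here gives the authors' annotation. Likewise Hoxa4, Hoxa5 and Hoxa6 lie inside the gene body of Hoxa3. Exons of Hoxa7 share 20.4% of their bases with Hoxaas3, a noncoding RNA on the opposite strand, and those of Hoxa3 share 13.3% with Hoxaas2 and Hoxaas3. Without strand, reads from such pairs cannot be assigned to either gene, and the part of this sharing in the values above was not tested.

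The upstream sequences of 3 members are shown. Hoxb4 was the most expressed of the called genes, and Hoxa9 the most expressed Hox gene. Hoxa2 is shown because its window held a match to the joint motif of Hox and Pbx proteins. RefSeq windows on GRCm38.p6 were at hand for 8 of the 13 tested genes, in 9 windows. Bases just after the start were found in a GENCODE M21 transcript of the same gene for 7 of the 9. The 250 bases before the start were searched on both strands for 4 motifs. These were the E-box CACGTG, the CCAAT box, the Meis and Tgif core TGACAG and the joint Hox and Pbx motif TGATTNAT. They occurred in 6.02%, 33.8%, 15.9% and 2.82% of all 32851 windows. Capitals mark matches on either strand, and a lower-case window holds none. The windows are chr11:96318017-96318266 on the plus strand for Hoxb4, and, on the minus strand, chr6:52227371-52227620 for Hoxa9 and chr6:52164832-52165081 for Hoxa2.
Hoxb4: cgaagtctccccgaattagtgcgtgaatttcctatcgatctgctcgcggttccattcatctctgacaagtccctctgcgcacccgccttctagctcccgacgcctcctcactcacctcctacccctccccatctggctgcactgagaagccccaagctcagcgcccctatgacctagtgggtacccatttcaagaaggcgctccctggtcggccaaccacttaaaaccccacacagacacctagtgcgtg
Hoxa9: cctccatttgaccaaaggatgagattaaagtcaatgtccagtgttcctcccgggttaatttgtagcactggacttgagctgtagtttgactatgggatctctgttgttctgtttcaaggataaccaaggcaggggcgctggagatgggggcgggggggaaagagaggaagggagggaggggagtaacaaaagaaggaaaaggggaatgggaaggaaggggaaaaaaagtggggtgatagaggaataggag
Hoxa2: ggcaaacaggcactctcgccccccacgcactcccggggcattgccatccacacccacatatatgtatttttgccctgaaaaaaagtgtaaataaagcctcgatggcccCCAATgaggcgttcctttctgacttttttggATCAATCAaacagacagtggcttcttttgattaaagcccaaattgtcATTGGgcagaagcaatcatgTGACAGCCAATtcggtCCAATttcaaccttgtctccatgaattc

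In Hoxa2 the joint motif lay on the other strand at -111 to -104 from the start, and TGACAG lay at -44 to -39 next to a CCAAT box at -38 to -34. A match is a description of letters and not a bound site. Hoxa3 held TGACAG at -13 to -8 on the other strand, and CCAAT was found in Hoxa5, Hoxa6 and 1 of 2 windows of Hoxa10. The Hoxb4, Hoxa7 and Hoxa9 windows held none of the 4 motifs, which says only that these letters are not in these windows.

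Of 17 noncoding genes inside the clusters, Mira alone had reads enough to be tested. Mira, a noncoding RNA of the Hoxa cluster that was linked to activation of Hoxa6 and Hoxa7 in mouse embryonic stem cells, had 73 and 78 counts in Dis3-/- libraries, against 100 and 64 in wild-type libraries (log2 fold change -0.01 ± 0.24, edgeR adjusted p = 0.982). Its level was 40.1 and 41.0 TPM in Dis3-/- libraries, against 51.7 and 35.9 TPM in wild-type libraries, close to that of Hoxa9. Hoxb5os, antisense to Hoxb5, had 11 and 10 counts in Dis3-/- libraries, against 4 and 7 in wild-type libraries, and Hoxaas3 had 9 and 10 counts in Dis3-/- libraries, against 8 and 4 in wild-type libraries. For both the Dis3-/- libraries were the higher ones, but neither had reads enough to be tested. Of all tested genes, 31.9% were likewise higher in Dis3-/- without overlap in CPM. Hoxaas2, also not tested, had 4.69 and 8.81 counts in Dis3-/- libraries, against 12.2 and 6.74 in wild-type libraries, and overlapped. Gm53, in the Hoxb cluster, had 1 count in each Dis3-/- library, against 1 and 3 in wild-type libraries. The microRNA genes Mir10a, next to Hoxb4, and Mir196b, next to Hoxa9, had at most 2 counts in Dis3-/- and at most 3 in wild-type libraries. Hotairm1 and Hotair had 0 counts in every library.

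Genes in the clusters or within 250 kb of them, other than Hox genes, moved in both directions. Of 46 such genes 13 were tested, 5 rose and 2 fell, with a median log2 fold change of 0.27 (all tested genes: 23.0% called, median -0.0027). Beside the Hoxa cluster Skap2, an adaptor gene, fell (-0.32 ± 0.11), and beside the Hoxb cluster Atp5g1, a subunit of the ATP synthase, rose (0.82 ± 0.13). Beside the Hoxc cluster Cbx5, a heterochromatin protein gene, rose (0.62 ± 0.08), as did Hnrnpa1 (0.27 ± 0.06) and Copz1 (0.41 ± 0.10), and Calcoco1 fell (-0.98 ± 0.16). Beside the Hoxd cluster Mtx2, a mitochondrial import gene, rose (0.46 ± 0.15). The edgeR adjusted p of these 7 ranged from 8.26e-05 to 0.0465, and several of these calls depended on the setting. Skap2 was not called by edgeR without Dis3-/- replicate 2 (adjusted p = 0.259), wild-type replicate 1 (0.155) or wild-type replicate 2 (0.0896), or by DESeq2 (0.159). Copz1 was not called by edgeR without Dis3-/- replicate 1 (adjusted p = 0.0751) or wild-type replicate 1 (0.0744), or by limma on log2(TPM + 1) values (0.0522). Mtx2 was not called by edgeR without Dis3-/- replicate 1 (adjusted p = 0.104), Dis3-/- replicate 2 (0.0742) or wild-type replicate 2 (0.30, adjusted p = 0.264), by DESeq2 (0.168) or by limma on log2(TPM + 1) values (0.0792). Hnrnpa1 was 0.16 on log2(TPM + 1) values (limma adjusted p = 0.0769).

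Among genes of Hox partners, Pbx4 fell and Meis1 was not called, nor were Pbx2 (-0.15 ± 0.13), Pbx3 (0.33 ± 0.18) and Pknox1 (0.27 ± 0.13). Of the related genes Pbxip1, Tgif1 and Tgif2 fell. Of 12 genes of Pbx, Meis and related proteins 9 were tested and 5 fell (median log2 fold change -0.52), against 10.2% of all tested genes called lower and a median of -0.0027. Among these, Pbx4 (-1.03 ± 0.28), the Pbx-binding protein gene Pbxip1 (-0.70 ± 0.14) and the repressor genes Tgif1 (-0.58 ± 0.11) and Tgif2 (-0.52 ± 0.12) fell, with edgeR adjusted p from 1.71e-03 to 0.0164. Leaving out Dis3-/- replicate 2 (edgeR adjusted p = 0.0954) or wild-type replicate 1 (0.0854) ended the call of Pbx4, as did DESeq2 (0.0750). Meis1, the leukaemia partner of Hoxa9, had 2087 and 2162 counts in Dis3-/- libraries, against 2860 and 2285 in wild-type libraries (-0.17 ± 0.08, edgeR adjusted p = 0.140). The share of genes called lower varied with level, and was 7.23% at 1.62 to 53.4 CPM. Many genes of the lists other than the Hox genes lay above that range. No share at like levels was computed for the partner, neighbour, regulator, linked or marker lists.

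Genes that act on Hox expression moved both ways. Of 14 such genes 11 were tested, 2 rose and 4 fell (median -0.04), against 12.7% of all tested genes called higher and 10.2% lower. Kmt2a, the histone methyltransferase gene that sustains Hox expression, had 4859 and 5749 counts in Dis3-/- libraries, against 7968 and 7000 in wild-type libraries (-0.40 ± 0.06, edgeR adjusted p = 6.13e-04). The elongation complex genes Mllt3 (-0.55 ± 0.09), Aff4 (-0.43 ± 0.08) and Aff1 (-0.30 ± 0.08) fell, while Psip1, whose protein tethers Kmt2a to chromatin, rose (0.42 ± 0.09), as did Mllt1 (0.30 ± 0.10). Their edgeR adjusted p ranged from 6.64e-04 to 0.0486. Leaving out wild-type replicate 2 ended the call of Aff1 (edgeR adjusted p = 0.142). That of Mllt1 ended in 10 of 13 alternatives. Among them were edgeR with RLE scaling (adjusted p = 0.0514) and without Dis3-/- replicate 1 (0.195), wild-type replicate 1 (0.0685) or wild-type replicate 2 (0.226), DESeq2 (0.190), limma-voom (0.0524) and limma on log2(TPM + 1) values (0.19, adjusted p = 0.235). The Hox activator genes Cdx1, Cdx2 and Cdx4 had 0 counts in every library.

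Of 11 genes linked to Hoxa9 and Meis1 in mouse leukaemia work, all tested, 5 fell (median -0.20), against 10.2% of all tested genes called lower. The receptor gene Flt3 had 200 and 185 counts in Dis3-/- libraries, against 395 and 373 in wild-type libraries (-0.89 ± 0.13), and Myb (-0.48 ± 0.07), Cd34 (-0.38 ± 0.08), Cdk6 (-0.37 ± 0.10) and Lmo2 (-0.24 ± 0.07) fell too. Their edgeR adjusted p ranged from 3.14e-04 to 0.0252. Leaving out Dis3-/- replicate 2 ended the call of Cdk6 (-0.19, edgeR adjusted p = 0.148), which was -0.56 on leaving out Dis3-/- replicate 1. Leaving out wild-type replicate 1 ended that of Lmo2 (-0.14, edgeR adjusted p = 0.305). Mecom (0.03 ± 0.08), also on the stem cell list, Bcl2 (-0.14 ± 0.10) and Sox4 (-0.11 ± 0.11) were among those not called.

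**Figure D4:**
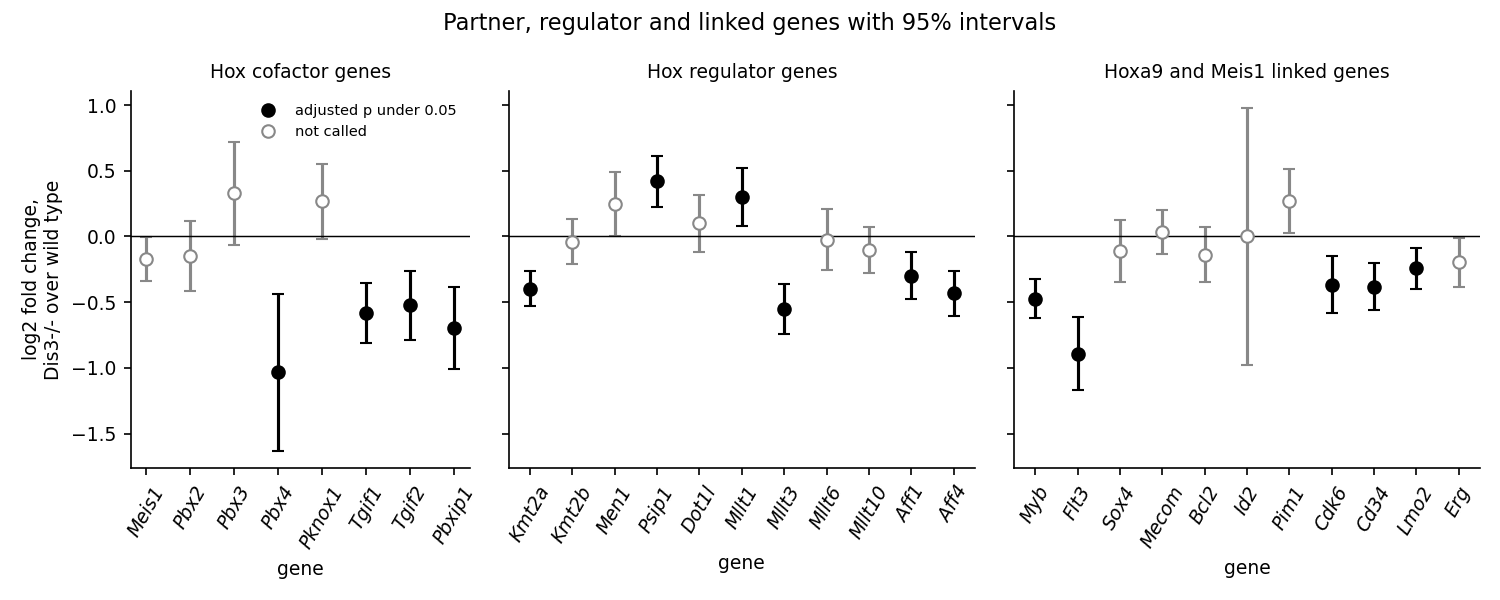
Log2 fold change, Dis3-/- over wild type, with 95% intervals for tested Hox cofactor, Hox regulator and Hoxa9 and Meis1 linked genes; filled points passed the adjusted p of 0.05. Pbxip1 (-0.70), Kmt2a (-0.40) and Flt3 (-0.89) lie below 0, and Psip1 (0.42) and Mllt1 (0.30) are the filled points above it.

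Of 45 markers of stem cells and of other cells 22 were tested. Of these 11 fell and 1 rose, against 10.2% of all tested genes called lower and 12.7% called higher. Of 9 genes on the stem cell list, not all of them limited to stem cells, 5 fell and Ly6a rose (0.43 ± 0.13). Among those that fell were Kit (-0.56 ± 0.06), Hlf (-0.46 ± 0.10), Ptprc (-0.38 ± 0.08) and Fgd5 (-0.35 ± 0.09). Procr (0.04 ± 0.13) and Slamf1 (-0.10 ± 0.21), the genes of the sort gate, and Mecom (0.03 ± 0.08) were not called. The stem cell list summed to 1606 to 1614 TPM in Dis3-/- and 1927 to 2258 TPM in wild-type libraries. The calls of Hlf (-0.24) and Ptprc (-0.28) ended without wild-type replicate 1, and those of Fgd5 (-0.28) and Ly6a (0.22) without wild-type replicate 2 (edgeR adjusted p = 0.0620 to 0.200), and Ly6a was 0.70 without wild-type replicate 1. DESeq2 called neither Hlf (adjusted p = 0.115) nor Ly6a (0.297). Of the other 36 markers 13 were tested and 6 fell, against 10.2% of all tested genes called lower: Prtn3 (-0.67 ± 0.18), Itgam (-1.39 ± 0.19), Gata1 (-2.01 ± 0.32), Cpa3 (-1.47 ± 0.47), Pecam1 (-0.67 ± 0.10) and Pdgfrb (-1.88 ± 0.26). The call of Prtn3 ended without Dis3-/- replicate 2 (edgeR adjusted p = 0.0646) or wild-type replicate 1 (0.127), and with DESeq2 (0.0608). That of Cpa3 ended without Dis3-/- replicate 2 (-0.87, edgeR adjusted p = 0.201) or wild-type replicate 2 (-0.88, 0.309), and with DESeq2 (0.0658), and Cpa3 was -2.46 without Dis3-/- replicate 1. Summed levels were 67.5 to 68.9 TPM in Dis3-/- and 99.7 to 113.8 TPM in wild-type libraries for granulocyte and monocyte markers, most of it from Prtn3, while S100a8 had 12.9 and 15.2 TPM in Dis3-/- and 5.35 and 8.76 TPM in wild-type libraries. Erythroid markers summed to 10.3 to 10.9 TPM in Dis3-/- and 20.2 to 25.3 TPM in wild-type libraries, and endothelial and stromal markers to 51.1 to 55.7 TPM in Dis3-/- and 95.7 to 100.4 TPM in wild-type libraries. Gata1 made up the difference in the erythroid sum, with 4.5 and 3.71 TPM in Dis3-/- and 21.5 and 14.2 TPM in wild-type libraries, while Hba-a1 had 2.59 and 1.66 TPM in Dis3-/- and 0 and 0.88 TPM in wild-type libraries. Pecam1 and Pdgfrb made up nearly all of the endothelial and stromal sum. Mast cell markers summed to 2.89 to 8.51 TPM in Dis3-/- and 14.1 to 22.8 TPM in wild-type libraries, and B cell markers to 2.08 to 2.62 TPM in Dis3-/- and 0.16 to 0.44 TPM in wild-type libraries. T and NK cell markers (212 to 261.7 TPM in Dis3-/-, 216 to 297.2 TPM in wild type) and megakaryocyte markers (47.7 to 89.3 TPM in Dis3-/-, 78.1 to 82.7 TPM in wild type) overlapped. Nkg7 made up nearly all of the T and NK cell sum in every library, and Cd4 and Klrb1c made up the rest. Cd3e, Cd3g, Ms4a1, Ly6c2, Hbb-bs and Mcpt8 were at 0 in every library. The part of these shifts in the Hox values was not tested.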

How the data were processed

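RNA-seq was made from 2 Dis3-/- and 2 wild-type libraries. The authors deposited one table of expected counts (estimated reads per gene, not normalized) and one of TPM. Per the submitters' processing notes the genome was mm10 and the tools included RSEM 1.3.3, STAR 2.7.8a and Trim Galore 0.6.6; no source used here gives the annotation or the strand setting. The tables held 0 columns of other samples. Expected counts were rounded and fitted with edgeR 4.0.16 (R 4.3.3): filterByExpr by genotype (minimum count 10, total 15), TMM scaling and a 2-sided quasi-likelihood test of all 12244 genes kept, with Benjamini-Hochberg adjustment at 0.05. Each SE is the absolute log2 fold change divided by the root of its F statistic, and 95% intervals use the test's degrees of freedom. CPM uses TMM-scaled sizes. Alternatives used DESeq2 1.42.0, limma 3.58.1 and log2(TPM + 1). The fits were tested on simulated data. Depth was 6085367 to 6818535 counts. Of 24411 symbols 24303 matched RefSeq, all 39 Hox genes among them. The rule named each tested Hox gene and each called gene of the other lists; some results are not reported here. Members and lists were chosen with earlier results of these data known.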

Additional observations from a re-analysis of the deposited data

How the results depend on the processing

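The called Hox genes had 31 to 147 counts in each of 2 libraries a genotype. The counts of calls moved in some settings, and the cause was not tested. DESeq2 called 1742 genes and 0 Hox genes (2 with an unadjusted p under 0.05). Limma on log2(TPM + 1) without a filter on low values called 950 genes and 0 Hox genes (4 with an unadjusted p under 0.05), 3 cofactor, 3 regulator, 3 linked, 2 neighbour and 6 marker genes; with the filter it called 4 neighbour genes at either pseudocount. Leaving out a library left 0 to 2 Hox genes called by edgeR (0 without Dis3-/- replicate 1 or wild-type replicate 1, 2 in each with an unadjusted p under 0.05; 1 without wild-type replicate 2). Same-numbered libraries did not deviate together (r = -0.0283 over genes), and with the replicate number as a block edgeR called 2614 genes and 2 Hox genes. The number of expressed Hox genes was 12 to 17 over the thresholds tried and 14 to 15 without a library. The sign turned for 7 Hox genes that were not called. Without 1 library each, the log2 fold change ranged from -0.173 to 0.865 for Hoxa4, -0.408 to 0.0537 for Hoxa5, -0.0775 to 0.267 for Hoxa6, -0.235 to 0.0259 for Hoxa9, -1.04 to 0.0904 for Hoxb2, -0.223 to 0.326 for Hoxb5 and -1.13 to 0.329 for Hoxb9. On log2(TPM + 1), with and without the filter, Hoxa6 stood at -0.00107 and Hoxb5 at -0.0534, and with a pseudocount of 0.1 at -0.00132 and -0.0605.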
